A study of Homo sapiens with 38 samples.

Results

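The regions described here are wide domains of H3K27ac, acetylation of lysine 27 of histone H3, in stimulated Jurkat cells. They were found by taking every line of the authors' pooled H3K27ac list that was on chromosomes 1 to 22 or X and at least 500 bp wide, and joining lines separated by at most 12.5 kb. The joined domains were ranked by the summed width of their lines. The top 500 of 13102 domains were kept, so summed width chose the members, and every H3K27ac value below is a description of that choice.

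Jurkat is an established human T-cell acute lymphoblastic leukaemia line. The H3K27ac, GATA3 and BHLHE40 lists each stand for 1 group of 2 ChIP-seq samples of Jurkat cells that carried the control lentivirus, Ctrl_LV. All 3 groups had been stimulated with 50 ng/ml PMA and 500 ng/ml ionomycin, for 5 hours per the sample labels and for 2 hours per the treatment protocol. As each list is a single pooled result, no spread between replicates could be computed and no test between groups was made, and the number of reads behind a line is unknown. The other 16 groups of the series were not analysed here.

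H3K27ac marks active promoters and enhancers. Long clusters of acetylated enhancers, often called super-enhancers, are known for lying near genes that define a cell type, and the stitching of neighbouring regions is the usual way to list them. GATA3 is a zinc-finger transcription factor of T-cell development that recognises GATA sites. BHLHE40 is a basic helix-loop-helix factor induced on T-cell activation, and it recognises the E-box CACGTG. PMA and ionomycin stand in for T-cell receptor signals by activating protein kinase C and raising calcium.

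A selection of mature microRNAs whose genes lay inside domains is shown first, because they name noncoding products of the domains. The others, among them miR-200c and miR-141 in the domain of rank 17, are not printed. Of 1558 microRNA hairpins with an entry in the RefSeq table (GRCh38.p14), 28 lay inside a member, or 1.80%. This is close to the 2.05% of gene records of every kind that overlapped a member (1210 of 59098), so microRNA genes as a class did not stand apart. Sequences run 5′ to 3′, and capitals mark the seed, bases 2 to 8.
hsa-miR-142-3p: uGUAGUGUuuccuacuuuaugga
hsa-miR-142-5p: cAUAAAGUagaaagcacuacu
hsa-miR-21-5p: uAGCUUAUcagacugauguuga
hsa-miR-132-3p: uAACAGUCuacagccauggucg
hsa-miR-212-3p: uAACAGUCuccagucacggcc
hsa-miR-106b-5p: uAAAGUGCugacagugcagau
hsa-miR-25-3p: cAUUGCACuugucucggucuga
hsa-miR-130b-3p: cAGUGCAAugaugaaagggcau

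miR-142, a microRNA of blood cells, lay in the domain of rank 41 (chr17:58330382-58352944), which had 6 lines and 5664 bp of summed width. That domain held 5 GATA3 and 4 BHLHE40 summits, and all 5 of its GATA3 regions overlapped a BHLHE40 region. miR-21, often raised in cancers, lay in the VMP1 domain of rank 44 (chr17:59828134-59854146), with 5574 bp of summed width, 4 GATA3 summits and 5 BHLHE40 summits. miR-132 and miR-212 share the seed AACAGUC and lay together in the domain of rank 235. miR-106b and miR-25 lay inside the MCM7 gene, which encodes a subunit of the replicative helicase, in the domain of rank 250. miR-130b was in the domain of rank 91. MIR155HG, host of an activation-induced microRNA, overlapped the domain of rank 480 (chr21:25555749-25574529), which held 2 summits of each factor, every GATA3 region among them shared.

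Promoter sequence was examined where a factor summit lay at the start of a gene inside a domain. Windows ran from 250 bases before to 50 bases after each protein-coding start in the RefSeq promoter table (GRCh38.p14, the hg38 assembly the lists use). The searched motifs were AGATAA (the site GATA factors prefer) and CACGTG (the E-box that BHLHE40 prefers), on both strands. Neither can overlap the other. Of all 22132 coding start windows, 7.88% held AGATAA and 8.34% held CACGTG. Among the 95 member windows with a GATA3 summit, 13.7% held AGATAA (Wilson 95% interval 8.17 to 22). Among the 294 member windows with a BHLHE40 summit, 16% held CACGTG (12.2 to 20.6). The matching shares outside the members were 11.2% of 1417 windows with a GATA3 summit and 13.5% of 5348 windows with a BHLHE40 summit, and both lay inside the members' intervals. Most occupied member promoters held neither motif in the window.

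In 4 member genes, chosen after their values were seen, a match lay close to the summit. Each line below gives the 250 bases before the gene start, 5′ to 3′ on the gene's strand, with the searched motif of the factor, or its reverse complement, in capitals.
CCR4: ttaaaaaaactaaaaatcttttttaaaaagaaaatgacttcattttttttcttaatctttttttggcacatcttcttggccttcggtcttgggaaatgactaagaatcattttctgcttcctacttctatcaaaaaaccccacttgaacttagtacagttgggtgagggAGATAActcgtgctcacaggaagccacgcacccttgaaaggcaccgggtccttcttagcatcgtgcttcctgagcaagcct
LRRFIP2: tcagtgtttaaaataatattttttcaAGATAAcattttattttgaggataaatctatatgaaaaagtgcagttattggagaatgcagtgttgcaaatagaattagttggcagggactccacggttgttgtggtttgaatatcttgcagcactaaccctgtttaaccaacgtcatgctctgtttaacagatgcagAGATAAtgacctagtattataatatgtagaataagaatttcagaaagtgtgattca
VPS37B: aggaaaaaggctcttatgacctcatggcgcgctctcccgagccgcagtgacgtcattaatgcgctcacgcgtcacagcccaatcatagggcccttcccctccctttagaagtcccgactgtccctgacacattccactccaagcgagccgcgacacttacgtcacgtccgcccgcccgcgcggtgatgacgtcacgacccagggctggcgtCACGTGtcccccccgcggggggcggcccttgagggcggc
HMOX2: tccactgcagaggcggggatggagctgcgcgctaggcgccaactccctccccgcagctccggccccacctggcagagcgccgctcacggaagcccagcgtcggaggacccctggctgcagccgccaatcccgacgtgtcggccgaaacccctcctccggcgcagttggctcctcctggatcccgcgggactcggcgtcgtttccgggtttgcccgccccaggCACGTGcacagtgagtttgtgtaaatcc

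CCR4 encodes a chemokine receptor of T helper and skin-homing T cells (plus strand, chr3:32951394-32951643). Its GATA3 summit, of signal value 19, lay 91 bases before the start and 12.5 bp from the centre of AGATAA. LRRFIP2, a regulator of Wnt and Toll-like receptor signalling (minus strand, chr3:37174891-37175140), had 2 matches, and the nearer was centred 6.5 bp from a GATA3 summit of signal value 52.2. VPS37B, a subunit of an endosomal sorting complex (minus strand, chr12:122896125-122896374), had a BHLHE40 summit of signal value 33.0 at 9.5 bp from the centre of CACGTG. HMOX2, the constitutive haem oxygenase (plus strand, chr16:4474486-4474735), had a BHLHE40 summit of signal value 48.4 at 1.5 bp from it. The signal value is the authors' per-region measure of height, and it is used only within a list. Where a summit window held a motif, the distance from motif centre to the nearest summit had a median of 28.5 bp for CACGTG in 47 member windows and 40.5 bp for AGATAA in 13. At other gene starts the medians were 44.5 bp in 723 windows and 34.5 bp in 159.

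The 500 domains joined 1936 lines and held 1.94 Mb of acetylated width, 12.3% of the width in all domains. Their spans, from first to last line, ran from 2.87 to 84.9 kb with a median of 19.5 kb. A median of 20.0% of a span was covered by these lines of at least 500 bp, and the rest is called gap. The members also held 792 H3K27ac lines under 500 bp, which count as gap here. Summed width ran from 2821 to 13764 bp with a median of 3484 bp. A member had a median of 4 lines, and 1 member was a single line. By comparison the next 500 domains had a median span of 11 kb, and the other 12102 domains were single lines in 82.4% of cases.

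No step separated members from the rest at the threshold. Ranks 499 (PPP1R9B) and 500 (USP3) had 2822 and 2821 bp, while ranks 501 (IRF3, BCL2L12 and PRMT1) and 502 (TMSB4X) had 2818 and 2817 bp. The label super-enhancer also depends on the measure: of the 500, 234 (46.8%) would remain if domains were ranked by signal value times width, and 347 (69.4%) if ranked by span. The individual lines of the members were not the tallest ones. Their median signal value was 4.72 (quartiles 3.56 and 6.52), against 5.41 in the next 500 and 5.88 in the other domains. They are therefore called wide or stitched domains here.

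**Figure D1:**
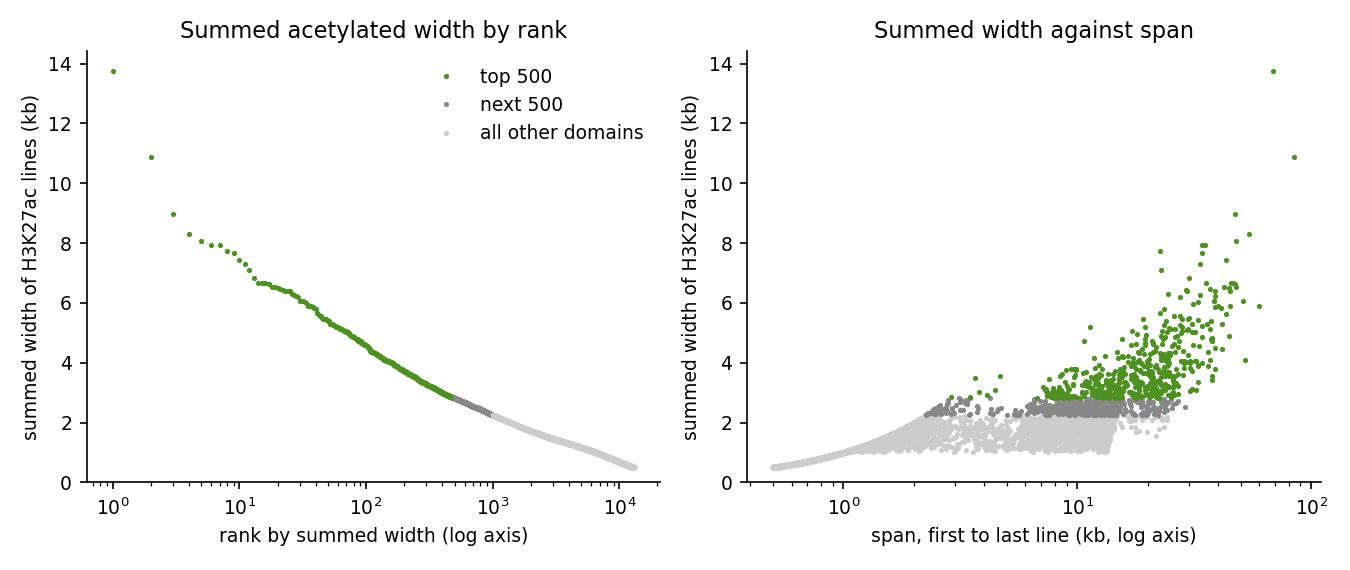
Left, summed width of H3K27ac lines (kb) against rank on a log axis for all 13102 domains. Right, summed width against span (kb, log axis). Green points are the top 500, dark grey the next 500 and light grey the rest. The curve rises to 13764 bp at rank 1 and passes rank 500 without a step.

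The widest domain covered the first part of PTPRC, which encodes the leukocyte phosphatase CD45, and extended upstream of it (chr1:198614172-198683042). It had 13 lines, 13764 bp of summed width, 12 GATA3 summits and 9 BHLHE40 summits. The GATA3 signal values ran from 10.6 to 114, and the highest lay 62.2 kb into the domain, 4 bp from a BHLHE40 summit of 34.2. The tallest BHLHE40 region, at 73.8, lay 55.1 kb in, where GATA3 had 67.2. At the first line of the domain neither factor had a summit, although its H3K27ac signal value of 6.34 was among the highest of the domain.

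PTPRC had wide neighbours. Between 198156300 and 199182691 on chromosome 1, a stretch of 1026 kb, 5 of the 500 domains lay in sequence, with 37 lines, 37800 bp of summed width, 42 GATA3 summits and 34 BHLHE40 summits. The first, of rank 11, was inside NEK7, a mitotic kinase that also acts in the inflammasome. The last 3, of ranks 174, 7 and 75, overlapped no coding gene. Rank 174 covered part of MIR181A1HG, the host of a microRNA that tunes T-cell receptor sensitivity. Rank 7 covered LINC01222 and LINC01221, and held 11 GATA3 summits but 6 BHLHE40 summits.

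The domain of rank 2 was built differently (chr17:8138653-8223504). It spanned 84.9 kb over PER1, VAMP2, TMEM107, BORCS6 and AURKB, with 7 listed coding gene starts. Lines of at least 500 bp covered 12.8% of it. PER1 is a core repressor of the circadian clock and an immediate-early gene, and AURKB is a mitotic kinase. The domain held 12 GATA3 and 14 BHLHE40 summits, the most BHLHE40 summits of any member, and all 12 GATA3 regions overlapped a BHLHE40 region. The tallest of each factor were at different places: GATA3 reached 51.9 at 34.8 kb, beside a BHLHE40 value of 41.6, and BHLHE40 reached 49.7 at 17.8 kb, beside a GATA3 value of 5.06.

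BACH2, a repressor that keeps T cells in a naive or memory state, held the domain of rank 3 inside its record (chr6:90249250-90296335). It had 9 GATA3 and 6 BHLHE40 summits. Its tallest region was shared, with signal values of 61.7 for GATA3 and 102 for BHLHE40, and the other GATA3 regions ran from 3.76 to 27.7. The domain of rank 4 (chr7:92588785-92642759) covered FAM133B and the 3′ part of CDK6, a cyclin-dependent kinase used by T-lineage leukaemias. It had 9 GATA3 and 11 BHLHE40 summits with no signal value above 34.3. A BHLHE40 region of 6031 bp inside it had a signal value of 2.67, so width and height did not go together there.

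CD226 encodes an activating receptor of T and natural killer cells, and its domain ranked 5 (chr18:69934656-69982566). It had 8 GATA3 and 9 BHLHE40 summits, and every GATA3 region overlapped a BHLHE40 region. The pair 46.0 kb into the domain had signal values of 134 for GATA3 and 152 for BHLHE40, with summits 20 bp apart. The pair at 31.2 kb had values of 94.0 for GATA3, the next highest of that factor in the domain, and 19.1 for BHLHE40. CELF2, an RNA-binding protein that changes splicing in activated T cells, held rank 6 (chr10:11145207-11180527) with 6 summits of each factor.

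Both T-cell receptor chains were represented. The domain of rank 8 (chr7:142787402-142810080) covered the constant genes TRBC1 and TRBC2 of the beta chain. It had 3 summits of each factor, among the fewest of the 12 widest domains, yet these included a GATA3 region of 135 and a BHLHE40 region of 103 with summits 4028 bp apart. Of the acetylated lines, 1 was 2932 bp wide. The domain of rank 9 (chr14:22536610-22570722) ran from the alpha-chain joining genes across TRAC to DAD1, a subunit of the oligosaccharyltransferase. Its tallest regions, 19.9 kb into the domain between TRAC and DAD1, had signal values of 242 for GATA3, the 4th highest in the whole GATA3 list, and 195 for BHLHE40, the 2nd highest in its list. Their summits were 32 bp apart. The interval between TRAC and DAD1 is known to hold the T-cell receptor alpha enhancer.

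The other 3 of the 12 widest were GAS7 (rank 10), NEK7 and MYO1G. GAS7 is an adaptor of the actin skeleton, and its domain had 5 GATA3 and 7 BHLHE40 summits with values no higher than 30.8. MYO1G, a myosin of lymphocyte membranes, shared its domain (chr7:44978660-45001421) with CCM2 and SNHG15, and all 7 GATA3 regions there were shared. The FLI1 domain ranked 36 (chr11:128694031-128738991). FLI1 is an ETS factor of blood cells, and its domain had 12 GATA3 and 9 BHLHE40 summits. Its GATA3 signal values ran from 4.91 to 50.3 and its BHLHE40 values from 4.63 to 18.4, and the highest GATA3 and the lowest BHLHE40 value were at the same position, 39.9 kb into the domain. PRKCH, a protein kinase C of T cells, ranked 20 with 10 GATA3 and 8 BHLHE40 summits, and 5 of its GATA3 regions were shared.

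**Figure D2:**
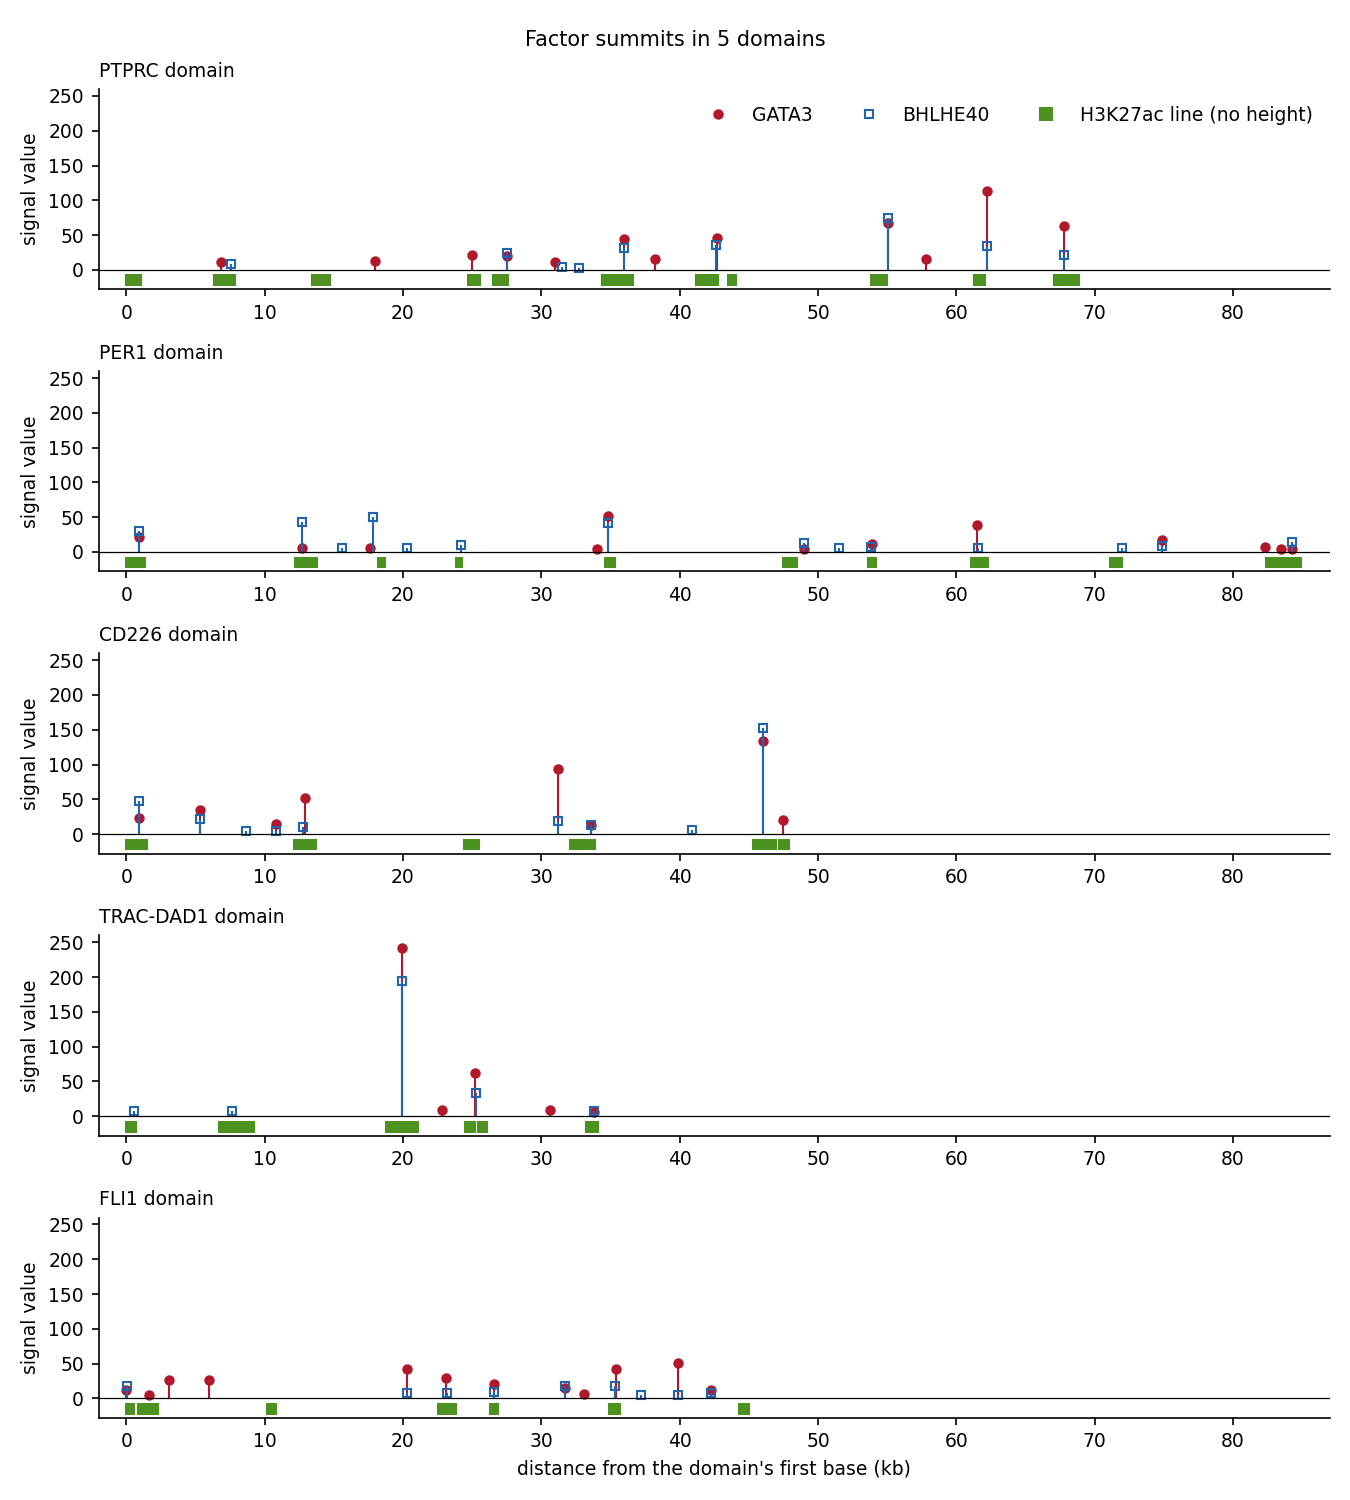
Factor summits in the PTPRC, PER1, CD226, TRAC-DAD1 and FLI1 domains. The horizontal axis is the distance from the domain's first base (kb), the vertical axis the authors' signal value, filled circles GATA3, open squares BHLHE40, and green blocks below 0 the H3K27ac lines without height. The TRAC-DAD1 domain has 1 dominant shared position at 19.9 kb, with 242 and 195, while the PER1 domain has none above 51.9.

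Most members held both factors. A domain was counted as holding a factor when at least 1 summit of that factor's list lay in its span. Both factors were present in 459 members, 91.8% (Wilson 95% interval 89.1 to 93.9), against 82.0% (78.4 to 85.1) of the next 500 and 37.7% of the other domains. GATA3 was in 92.2% of members and 84.2% of the next 500, and BHLHE40 in 98.4% and 97.2%. The intervals of GATA3 in members (89.5 to 94.2) and the next 500 (80.7 to 87.1) did not overlap, and those of BHLHE40 did. Wider spans give more room for a summit, and span and membership cannot be told apart in these counts.

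Per base of acetylated line, the members were not richer in either factor, while per base of gap they were richer in GATA3 than the other domains. Inside acetylated lines GATA3 had 4.06 summits per 10 kb in members (exact Poisson 95% interval 3.78 to 4.35), 4.25 in the next 500 (3.90 to 4.63) and 4.19 in the other domains (4.08 to 4.31). BHLHE40 had 5.77 (5.44 to 6.12), 6.30 (5.87 to 6.75) and 6.99 (6.85 to 7.14), so its density was lower in members than in the other domains by more than counting error. These intervals cover counting error only. In the gaps between lines GATA3 had 0.643 summits per 10 kb in members (0.590 to 0.700) and 0.499 in the other domains (0.456 to 0.545), intervals that do not overlap. The next 500 had 0.530 (0.465 to 0.603), which overlaps the members. BHLHE40 had 0.618 in members and 0.635 in the other domains. Against the other domains, the lower BHLHE40 value in member lines was also present among lines of like width. In lines under 1000 bp, 40.3% of member lines (37.5 to 43.2) and 49.7% of lines in the other domains (48.7 to 50.7) held a BHLHE40 summit. In lines from 1000 to under 1500 bp 76.3% (72.6 to 79.6) and 84.0% (82.8 to 85.2) did, and in lines of 1500 bp or more 87.1% (82.3 to 90.8) and 92.1% (89.6 to 94.0) did, where the intervals overlap. For GATA3 the shares in members and the other domains were 28.0% and 28.5%, 49.6% and 51.8%, and 69.3% and 68.5% over the same widths.

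**Figure D3:**
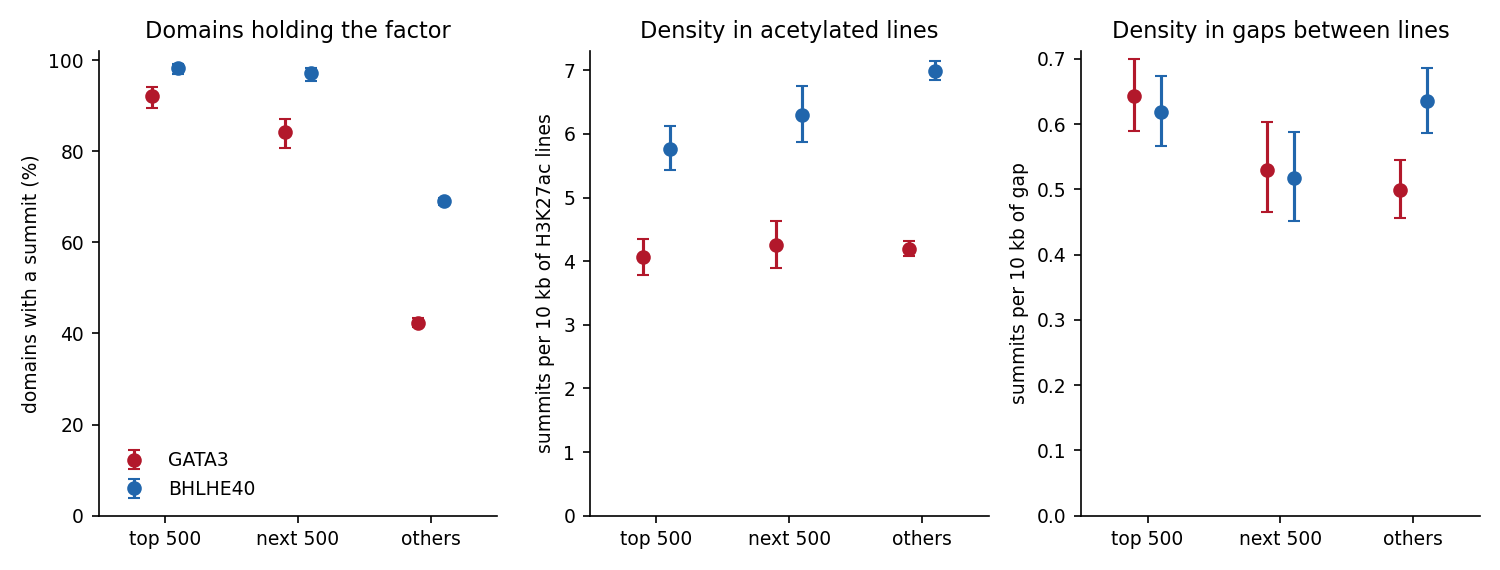
Left, percent of domains with a summit (Wilson 95% intervals). Middle and right, summits per 10 kb of H3K27ac line and of gap (exact Poisson 95% intervals), for the top 500, the next 500 and all other domains. Red is GATA3 and blue BHLHE40. The share of domains with GATA3 falls from 92.2% to 42.4%, while GATA3 density in lines stays between 4.06 and 4.25.

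In all, the members held 1325 GATA3 summits, 4.58% of the list, and 1636 BHLHE40 summits, 6.25% of the list. Of these, 59.4% of the GATA3 and 68.4% of the BHLHE40 summits were inside a line and the rest in gaps. Of the gap summits, 52 of GATA3 and 52 of BHLHE40 lay in H3K27ac lines under 500 bp. A member had a median of 2 GATA3 and 3 BHLHE40 summits. The counts of both rose together, with a Spearman rho of 0.490 over 500 domains and 0.474 per 10 kb of span. Each count also rose with span, with a rho of 0.360 for GATA3 and 0.539 for BHLHE40. The values per 10 kb share a denominator, so 0.474 cannot show a link apart from domain size. These correlations are descriptions over domains read from the same lists. Summits were more frequent at the ends of a domain: the first and last of 5 equal parts of the spans held 27% and 28.5% of the GATA3 summits and 33.8% and 33.2% of the acetylated width, which a span that begins and ends in a line imposes.

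Of the member GATA3 regions, 78.3% overlapped a BHLHE40 region (76.0 to 80.5), against 81.9% (79.0 to 84.4) in the next 500 and 88.5% (87.7 to 89.3) in the other domains. The order of members and the next 500 turned with a gap of at most 5000 bp, to 91.4% and 90.7%, and when shared meant summits within 100 bp, to 54.2% and 52.9%. Of the BHLHE40 regions, 60.6% overlapped a GATA3 region in members and in the next 500 alike, and 54.2% (53.2 to 55.3) in the other domains. Where a GATA3 region was shared, its summit was a median of 47 bp from the nearest BHLHE40 summit in members. In 336 members with at least 2 summits of each factor, the tallest GATA3 and the tallest BHLHE40 summit were within 100 bp of each other in 45.5% (40.3 to 50.9). That share was 37.8% (31.3 to 44.8) in the next 500 and 49.8% (44.1 to 55.6) in the other domains, and these intervals overlap.

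Heights inside a domain were uneven. In 214 members with 3 or more GATA3 summits, the tallest region was a median of 5.85 times the lowest (quartiles 2.98 and 11.3). For BHLHE40, in 312 such members, the ratio was 3.45 (2.32 and 6.27). The median signal value in members was 11.7 for GATA3 and 11 for BHLHE40, close to 11.4 and 11.5 in the next 500. With the GATA3 list cut into 10 equal groups by signal value, members held 6.87% of the lowest group (6.01 to 7.85), 3.07% of the fifth (2.50 to 3.77) and 8.32% of the highest (7.37 to 9.38). For BHLHE40 the same groups gave 6.65% (5.76 to 7.67), 4.97% (4.20 to 5.87) and 11.3% (10.1 to 12.5). Members thus held larger shares of both the lowest and the tallest regions than of the middle. Of the 100 tallest regions, 11 GATA3 and 18 BHLHE40 regions lay in members.

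The tallest BHLHE40 region of the whole list, at 226, lay in the AHI1 domain of rank 176 (chr6:135322562-135358879). AHI1 is a gene of cilia that lies next to MYB and is a common site of viral insertion in mouse leukaemias. The paired GATA3 region had a signal value of 201, the 15th highest in its list, with its summit 31 bp away. Both summits lay outside the acetylated lines of at least 500 bp. SPTBN1, a spectrin, ranked 29, and its tallest pair had 169 for GATA3 and 147 for BHLHE40 at 3 bp. The domain of rank 40 overlapped KDM6B, which removes methyl groups from lysine 27 of histone H3. That domain had a GATA3 region of 163 at 0.419 kb from a coding start, not necessarily that of KDM6B. The domain of rank 95, which held the start of SLAMF6, a receptor of T cells, had a BHLHE40 region of 168. That region lay outside the SLAMF6 record, 17.1 kb from a coding start.

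The 5 members with the most summits of both factors per base spanned 2.87 to 19.7 kb, against a median of 19.5 kb over all members. SLC38A1, a glutamine transporter, was the single-line member (chr12:46267141-46270010, 2.87 kb, rank 461), with 1 GATA3 and 2 BHLHE40 summits, 10.5 per 10 kb of both factors. IRF2BP2, a corepressor of NFAT and interferon factors, ranked 340 with 5 summits of each factor in 11.6 kb, and all 5 GATA3 regions were shared. ELOVL5, a fatty-acid elongase, ranked 87 with 5 GATA3 and 4 BHLHE40 summits in 10.7 kb. Of the other 2, neither overlapped a coding gene: rank 234, nearest to HDAC4, had 2 of each in 4.68 kb, and rank 211, nearest to PELO, had 9 GATA3 and 7 BHLHE40 summits in 19.7 kb, with GATA3 values of 92.1 and 82.1 at its first positions.

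Few members lacked a factor. Neither was found in 6 members, GATA3 alone in 2 and BHLHE40 alone in 33. The widest of the 6 were rank 166 (chr16:46388606-46401038) and rank 299 (chr16:34571844-34595571), each more than 100 kb from a coding gene, at 177553 and 182023 bp. They lie on either side of the centromeric heterochromatin of chromosome 16. The others named by width were BTN3A2 with BTN2A2 (rank 435), members of the butyrophilin family sensed by gamma-delta T cells, NAP1L4 (rank 436), a histone chaperone, and INPP5B (rank 464), an inositol phosphatase. GATA3 alone was found near ZNF217 (rank 225) and in MYO18A (rank 389).

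The 33 members with BHLHE40 and no GATA3 held genes of many kinds, and those named below are a selection. GATA3 was present in 15 of 16 domains with T-cell receptor signalling genes, and in 9 of 10 with receptor complex and surface genes. Over all members the share was 92.2%. CD27, a costimulatory receptor, shared the domain of rank 56 with TAPBPL and VAMP1, with 3 BHLHE40 summits and none of GATA3 in 27.4 kb. The domain beside IRF1, an interferon-response factor, ranked 59 with 4 BHLHE40 summits. LCP2, the adaptor SLP-76 of T-cell receptor signalling, ranked 227 with 1 BHLHE40 summit, of signal value 5.15. PIM3, a survival kinase, LDHA, lactate dehydrogenase, DNMT3A, a DNA methyltransferase, and TNFRSF14, the receptor HVEM, were others, with 2 or 3 BHLHE40 summits each.

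GATA3 was sparser in domains with many promoters. Gene starts were taken from the RefSeq promoter table, which has an entry for 15812 of 19974 coding gene records and none on chromosome 8, so 487 members could be classed. The 204 members with no listed coding start had 1.59 GATA3 summits per 10 kb of span (1.46 to 1.71), the 118 with 1 start 1.26 (1.12 to 1.41), the 71 with 2 starts 1.19 (1.01 to 1.38) and the 94 with 3 or more 0.884 (0.767 to 1.02). BHLHE40 had 1.66, 1.54, 1.59 and 1.53, a difference within counting error. Leaving out members over a coding record with no listed start, an alternative added after seeing the data, gave 1.59 and 0.920 for GATA3 in the first and last classes. Of 94 members with 3 or more starts, 14 had no GATA3 summit, and of the 204 with none, 9 had none.

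Sharing followed the same division. GATA3 regions overlapped BHLHE40 in 75.5% of cases (72.0 to 78.7) in members with no listed start and in 84.2% (78.5 to 88.5) in members with 3 or more. BHLHE40 regions overlapped GATA3 in 70.0% (66.3 to 73.3) and 44.4% (39.3 to 49.7). Within 1 kb of a coding start lay 15.5% of member GATA3 summits (13.7 to 17.6) and 24.9% of member BHLHE40 summits (22.8 to 27). In the other domains these shares were 36.9% (35.6 to 38.2) and 47.7% (46.7 to 48.7), so smaller shares of member summits lay at promoters, by more than counting error. The median distance to a coding start was 14.3 kb in members and 13.6 kb in the other domains for GATA3, and 10.5 and 2.25 kb for BHLHE40. GATA3 regions within 1 kb of a start had a median signal value of 8.88 in members and those further away 12.5, while BHLHE40 had 12 and 10.6.

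**Figure D4:**
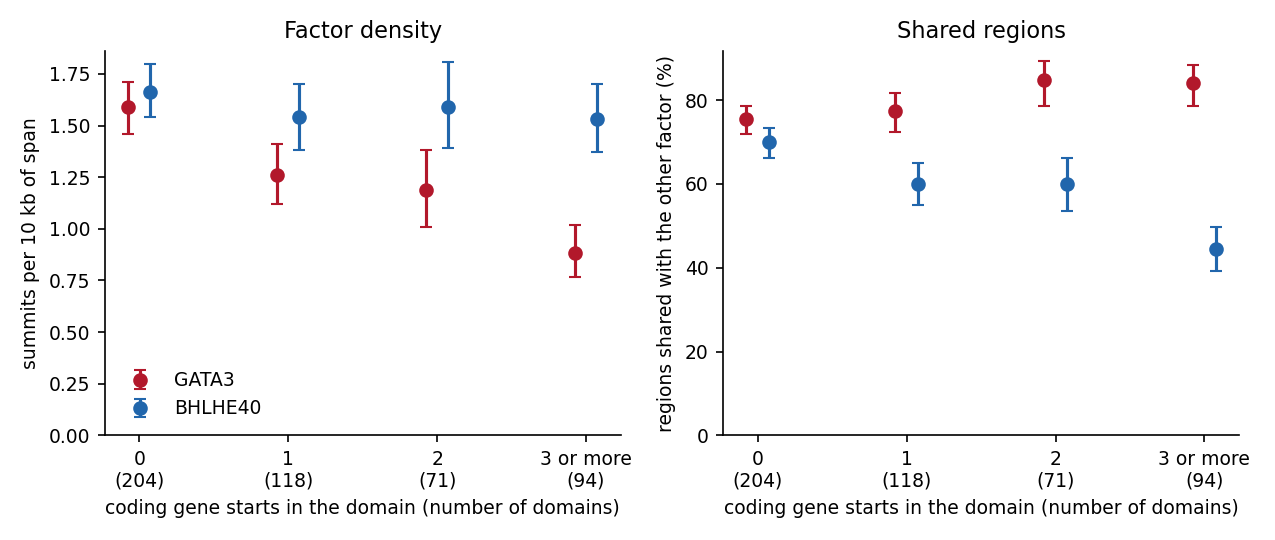
Members grouped by the number of listed coding gene starts in the domain, with the number of domains in brackets. Left, summits per 10 kb of span with exact Poisson 95% intervals. Right, percent of regions shared with the other factor with Wilson 95% intervals. GATA3 density (red) falls from 1.59 to 0.884, BHLHE40 (blue) stays between 1.53 and 1.66, and its shared percent falls from 70.0% to 44.4%.

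A coding gene record overlapped 426 of the 500 domains, and 751 of 19974 protein-coding records, 3.76%, overlapped a domain. By start rather than record, 660 of 22132 listed coding starts, 2.98%, were inside a domain. Of the 74 domains over no coding record, 48 overlapped a noncoding or other record and 26 none, at a median of 41.3 kb from the nearest coding gene. By record length, 5.14% of records under 10 kb overlapped a domain, 3.00% of those from 10 to 50 kb, 3.13% from 50 to 100 kb and 3.79% of those of 100 kb or more, so the share was highest for the shortest records and rose with length among the rest. The most coding records in a domain was 8.

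The gene lists below were drawn up with earlier results of these data known, and each count is read against 3.76% for all coding records. Of 38 genes of T-cell receptor signalling, 16 overlapped a domain, 42.1% (Wilson 95% interval 27.9 to 57.8). Besides PTPRC and PRKCH these included PTPN6, the phosphatase SHP-1 (rank 17), ORAI1, the calcium channel pore (rank 15), LCK, the receptor-proximal kinase (rank 79), STIM1, the calcium sensor (rank 111), and NFATC1 (rank 112). ZAP70, LAT and PLCG1 overlapped narrower domains, at ranks 687, 787 and 3760. By listed start instead of record, 8 of the 31 genes with an entry were inside a domain. The 16 domains held 64 summits of each factor, 1.51 per 10 kb of span, against 1.29 for GATA3 and 1.59 for BHLHE40 over all members.

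Of 30 genes of the T-cell receptor complex and surface, 11 overlapped a domain, 36.7% (21.9 to 54.5). They included TRAC, TRBC1 and TRBC2, then CD27, SLAMF1 (rank 62), SLAMF6, CD2 (rank 122) and CD3E (rank 285), with 3 of lower rank. TRAC, TRBC1 and TRBC2 are not protein-coding records, and of gene records of every kind 2.05% overlapped a domain. The 11 genes lay in 10 domains. CD2, an adhesion receptor, had 3 GATA3 and 2 BHLHE40 summits in its domain, and CD3E, a signalling chain of the receptor, 1 and 3. CD3G and PTCRA, the pre-T-cell receptor alpha chain, overlapped no acetylated line of 500 bp. Of 24 genes of homing and adhesion, 8 overlapped a domain, 33.3%: RAC2 (rank 97), ITGB2 (rank 159), CORO1A (rank 249), SELPLG (rank 304), ITGAE (rank 310), CCR4 (rank 339), EVL (rank 343) and CD58 (rank 383).

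Of 32 T-lineage transcription factors, 7 overlapped a domain, 21.9% (11 to 38.8): BACH2, FLI1, LEF1 (rank 212), TCF12 (rank 237), IKZF1 (rank 371), ETS1 (rank 419) and IKZF3 (rank 433). By listed start, 2 of 26 were inside a domain. RUNX1 (rank 1431), RUNX3 (rank 1579) and TCF7 (rank 7193) overlapped domains outside the top 500, and BCL11B overlapped none. Of 25 genes of the TAL1 complex and its known targets in T-cell leukaemia, 4 overlapped a domain, 16%: CDK6, TRIB2 (rank 228), TCF12 and ETS1. Of 40 immediate-early and activation genes, 7 did, 17.5% (8.75 to 32): LTA (rank 48), ATF3 (rank 52), JUNB (rank 61), IER2 (rank 128), CD69, IER3 (rank 393) and TNFAIP3 (rank 483). Of 30 feedback inhibitors, 1 did, DUSP1 (rank 470), and of 18 genes of the circadian clock and BHLHE40 family, PER1 alone, both close to the background share. The noncoding hosts gave 6 of 24, among them MIR142HG, MIR181A1HG, MIR155HG and PVT1 (rank 425), 25% (12 to 44.9), against 2.05% of gene records of every kind.

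Genes without a lineage role were also present. Of 60 replication-dependent histone genes, which supply histones in S phase, 35 overlapped a domain, 58.3%, the highest share of the 16 lists. They lay in 9 domains on 2 chromosomes, and neighbours in a cluster are not independent. The domain of rank 23 (chr6:26188032-26217371) held 7 of them, with 6 GATA3 and 4 BHLHE40 summits and a GATA3 value of 73.0. All 9 histone domains held both factors, near the 91.8% of all members that did. Of 79 cytosolic ribosomal protein genes, 13 overlapped a domain, 16.5% (9.88 to 26.1). Of 34 proteasome subunit genes, 1 did. Markers of B cells, myeloid cells, erythroid cells and non-blood tissues, 12, 12, 12 and 20 genes, gave 0 in every list. Their intervals reached 24.2% for the lists of 12 genes and 16.1% for the list of 20. All include the 3.76% of all coding records, so these counts do not differ from the background.

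The cell type label was checked on acetylated lines. Over all coding records 46.8% overlapped a line of at least 500 bp. Of 11 T-cell markers, 7 overlapped a line and 7 a member domain, and TRAC, TRBC1 and TRBC2 lay in a domain between lines. Of 7 markers of the TAL1 class of T-cell leukaemia, 6 overlapped a line and 0 a member domain. A line was also found at 3 of 12 B-cell markers (BLK, CR2 and POU2AF1), at 1 of 12 myeloid markers (SPI1), at 2 of 12 erythroid markers (EPOR and ANK1) and at 0 of 20 non-blood markers. Overlap with a domain is a position and not a measure of transcription.

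**Figure D5:**
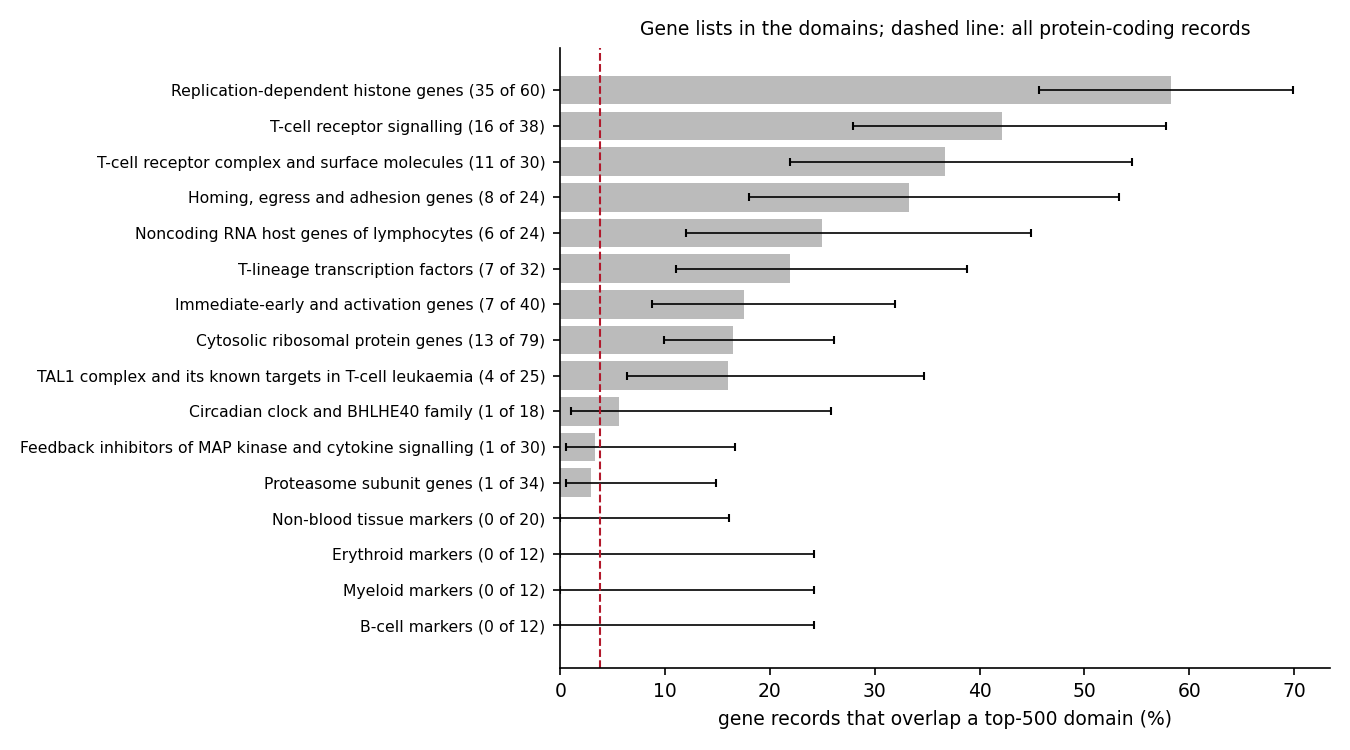
Percent of gene records in each of 16 lists that overlap a top-500 domain, with Wilson 95% intervals and counts beside the list name. The dashed line marks 3.76%, the share of all protein-coding records. Histone genes reach 58.3% and T-cell receptor signalling 42.1%. The marker lists of other cell types are at 0, with intervals that include the dashed line.

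The loci of the factors themselves were not among the widest domains. GATA3 overlapped a domain of rank 3464 with 1380 bp of summed width. The BHLHE40 record overlapped no line of 500 bp, and the nearest member, rank 271, lay 147 kb away inside ITPR1 (chr3:4820769-4831982), a calcium release channel. That domain held 3 summits of each factor, with a BHLHE40 value of 56.0. TAL1, the leukaemogenic helix-loop-helix factor, overlapped a domain of rank 689 with 2548 bp, among the next 500.

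MYB, an oncogenic factor of T-cell leukaemia, overlapped a domain of rank 2022, but a member of rank 18 lay 51.7 kb away between HBS1L and MYB (chr6:135087168-135129596). It had 6 lines and 6533 bp of summed width. Its 8 GATA3 summits had signal values from 5.06 to 37.6 and its 7 BHLHE40 summits from 9.47 to 33.4, and 7 of the 8 GATA3 regions were shared. The 2 tallest were the same position, at 23.3 kb, with summits 36 bp apart and outside the acetylated lines of at least 500 bp.

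CD69, an early activation receptor that retains lymphocytes in tissue, lay whole inside the domain of rank 149 (chr12:9741902-9765895). The domain had 5 lines and 4052 bp of summed width, with 7 GATA3 and 4 BHLHE40 summits. The tallest pair was 23.1 kb into the domain, with 96.1 for GATA3 and 99.2 for BHLHE40 at 2 bp from each other. Both summits were outside the acetylated lines of at least 500 bp. Over the gene body BHLHE40 formed a region of 12303 bp. The GATA3 positions at 6.97, 11.2 and 12.1 kb, with signal values of 6.87, 9.17 and 7.33, were more than 6 kb from any BHLHE40 summit. Those at 11.2 and 12.1 kb still lay inside the BHLHE40 region of 12303 bp, and only its summit was distant.

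Very wide BHLHE40 regions were a further feature. Of 95 BHLHE40 regions of at least 5000 bp, 14 lay in 12 members, 14.7%, against 6.25% of all BHLHE40 regions. Most of them overlapped PTPRC, CDK6, TRBC1, VMP1 with MIR21, CALR, which encodes the endoplasmic reticulum chaperone calreticulin, MIDEAS, SRSF2, a splicing factor, IER2, CD69, PKM, pyruvate kinase, and histone genes of ranks 23 and 392. A region of 6031 bp in the domain of rank 4 overlapped none of these genes. Nor did a region of 7331 bp, of signal value 103, in the domain of rank 8. The widest in coding genes besides CD69 was at CALR, 10931 bp with a signal value of 63.4. Region width comes from the peak list, and whether these extended regions differ in kind from narrow ones was not tested.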

How the data were processed

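ChIP-seq peak lists of 3 Ctrl_LV groups, 2 samples each, were used. Samples were grouped by their titles, 38 samples in 19 groups. Per the submitters' processing notes, bcl2fastq 2.20 and MACS2 were used with hg38. The aligner, filters and use of inputs are not given in the sources used here. The deposited lists give per region a score (for the factors from 540 to 1000), a signal value and a −log10 q, all as the authors wrote them. Factor lists are named with an IDR threshold of 0.05 (irreproducible discovery rate, from the agreement of peak ranks in both samples). The name of the H3K27ac list says pooled.

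Lines were stitched and summits placed with Python 3.11.15, numpy 2.4.6, pandas 2.3.3 and scipy 1.17.1, checked on simulated lists. A factor region belonged to the domain that held its summit, and 2 regions were shared when they overlapped by 1 bp or more. Genes are RefSeq records (GRCh38.p14), and all 490 listed symbols matched. Named domains were the 12 widest, the 5 with most summits of each factor, the 5 densest, those with neither factor (5 widest), those around rank 500, list genes inside a domain, and 5 loci (GATA3, BHLHE40, TAL1, CD69 and MYB). Features named for height or motif were chosen after their values were seen. The members and gene lists were chosen with earlier results of these data known. Alternatives changed the line threshold, the gap, the rank, the number of members, promoter lines, the factor score, the overlap rule and the gene rule.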

Additional observations from a re-analysis of the deposited data

How the results depend on the processing

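No paired analysis was possible because the samples of a group come as a single list, which also means that no replicate could be left out. Of 58 recomputed values, 25 left the value inside the interval of the main one (a gene count within 1.5 times) and 33 moved it. The cause of each move was not tested.

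With a gap of at most 5000 bp, both factors were in 76.8% of members, BHLHE40 density was 5.32 per 10 kb, the shares of all regions in members were 2.17% for GATA3 and 2.98% for BHLHE40, 91.4% of GATA3 regions were shared, the median BHLHE40 signal value was 12.8, and 458 coding genes overlapped. Ranked by summed signal value times width, the values were 84.4% with both, densities of 4.38 and 6.54, shares of 3.43% and 5.05%, 83.8% shared, and a BHLHE40 median of 11.6. With the top 250 domains, 94.4% held both, shares were 2.94% and 3.83%, and 404 coding genes overlapped. Without lines within 2500 bp of a gene start, 88.6% held both, GATA3 density was 4.62, shares were 3.79% and 4.65%, the GATA3 median was 13.1, and 333 coding genes overlapped. With a factor score of at least 830, 85.8% held both, densities were 3.43 and 5.23, shares were 4.95% and 6.84%, and medians were 14.2 and 12.4. Counting GATA3 regions as shared only with summits within 100 bp gave 54.2%, and taking genes by their start inside the span gave 483 genes.

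Members stayed above the next domains in the share holding both factors in 7 of 7 alternatives, and below them in BHLHE40 density in 6 of 6. Other directions turned in places. They held in 4 of 6 for GATA3 density, 3 of 6 for the GATA3 median, 5 of 6 for the BHLHE40 median, 5 of 7 for shared GATA3 regions (turned at 5000 bp and at 100 bp) and 4 of 6 for coding genes (458 against 476 at 5000 bp, and 333 against 336 without lines near starts). The lists give no reads, so depth limits are unknown.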

Other observations

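Several members stood in runs along a chromosome, which the ranking by single domains does not show. On chromosome 6, 5 members with histone genes and BTN3A2 lay within 363 kb, with 22746 bp of summed width, 12 GATA3 and 13 BHLHE40 summits. On chromosome 16, 5 members around CORO1A and MYL11 lay within 608 kb and held 10 GATA3 and 15 BHLHE40 summits in 20631 bp. On chromosome 19, 4 members from TNPO2 to IER2 lay within 446 kb with 12 GATA3 and 17 BHLHE40 summits. The SLAMF6, CD84 and SLAMF1 domains, all of receptors of 1 family, lay within 146 kb and held 16 GATA3 and 13 BHLHE40 summits. Members in a run are neighbours and not independent of each other.

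Over all chromosomes, 500 of 13102 domains were members. The highest shares were 5.69% on chromosome 16 (28 of 492), 5.64% on chromosome 17 (39 of 692), 5.07% on chromosome 6 (38 of 749) and 5.03% on chromosome 21 (8 of 159). The lowest was 2.08% on chromosome 4 (11 of 528). No intervals were computed for these shares. A chromosome's copy number in this line was not measured here, and its part in these shares was not tested.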
